A study of Mus musculus with 8 samples.

Results

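The genes described here are Trp53, which encodes p53, its relatives Trp63 and Trp73, and 5 regulators that act back on p53: Mdm2, Mdm4, Rchy1, Ppm1d and Ccng1. They were found by matching the RefSeq transcript that names each probe set to a gene symbol, current or former. All 8 genes had at least 1 probe set. They account for 18 of the 22523 probe sets tested, and for 10 of the 18172 distinct value profiles once probe sets with identical values on all arrays are counted once. The whole table names 15653 genes.

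p53 is a transcription factor that is kept scarce by ubiquitin ligases and accumulates when cells are stressed. Several of the genes it activates encode proteins that shut it off again. Mdm2 is a ubiquitin ligase that binds p53, blocks its activation domain and sends it to the proteasome, Mdm4 is a relative of Mdm2 that binds the same domain, and Rchy1 (Pirh2) is a further p53-binding ubiquitin ligase. Ppm1d (Wip1) is a phosphatase that removes activating phosphates from p53 and from the kinases upstream of it, and Ccng1 encodes cyclin G1, which recruits protein phosphatase 2A to Mdm2. Mdm2, Rchy1, Ppm1d and Ccng1 are known targets of p53, so that a rise in p53 activity raises its own inhibitors.

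Messenger RNA was measured on 8 Affymetrix mouse arrays, each from an independent preparation of cultured cells, and all values given are log2 units as deposited. All cells were p53-null murine fetal fibroblasts, carried a construct with a metallothionein promoter, and were kept for 48 h in medium with 65 µM ZnCl2 and 5 µg/ml puromycin. Ind-8 cells (ASYM, 3 arrays) express a wild-type murine p53 cDNA from that promoter, a modified human one that zinc switches on, and divide asymmetrically in zinc. Con-3 cells (SYM, 3 arrays) hold the vector without the cDNA, remain p53-null and divide symmetrically; the sample labels name them as the congenic parent and the methods as a vector control. tI-3 cells (p53SYM, 2 arrays) derive from Ind-8, induce p53 in zinc as well, carry in addition an IMPDH II cDNA that is expressed constitutively, and divide symmetrically. Their medium alone held G418, for which the labels and the methods give different concentrations. Each state is 1 cloned line, so that state, clone and, for p53SYM, the IMPDH II cDNA and G418 cannot be told apart. In bulk RNA, a change in the share of cells that express a gene and a change in RNA per cell cannot be told apart either.

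The arrays differed in their control probe sets. The 14 hybridization-control probe sets averaged between 8.98 and 9.16 on the ASYM arrays and on SYM replicates 1 and 2, and 9.62, 9.43 and 9.71 on SYM replicate 3 and p53SYM replicates 1 and 2. On SYM replicate 3 the 18S ribosomal RNA control read 11.38 at the 3′ end and 10.97 at the 5′ end. Across the other 7 arrays these probe sets read 6.59 to 7.67 and 4.55 to 5.25. SYM replicate 3 therefore stood apart, and calls of the 8 genes that change without it are given both ways. All ASYM arrays had low hybridization controls and both p53SYM arrays had high ones, so a fit with this level as a block sets ASYM against p53SYM only through the SYM arrays. In that fit, p53SYM is set against SYM replicate 3 alone, the array that stands apart, and ASYM against SYM replicates 1 and 2 alone. A call lost under the block thus rests on fewer arrays, and an effect of the control level and the loss of arrays cannot be told apart.

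**Figure D1:**
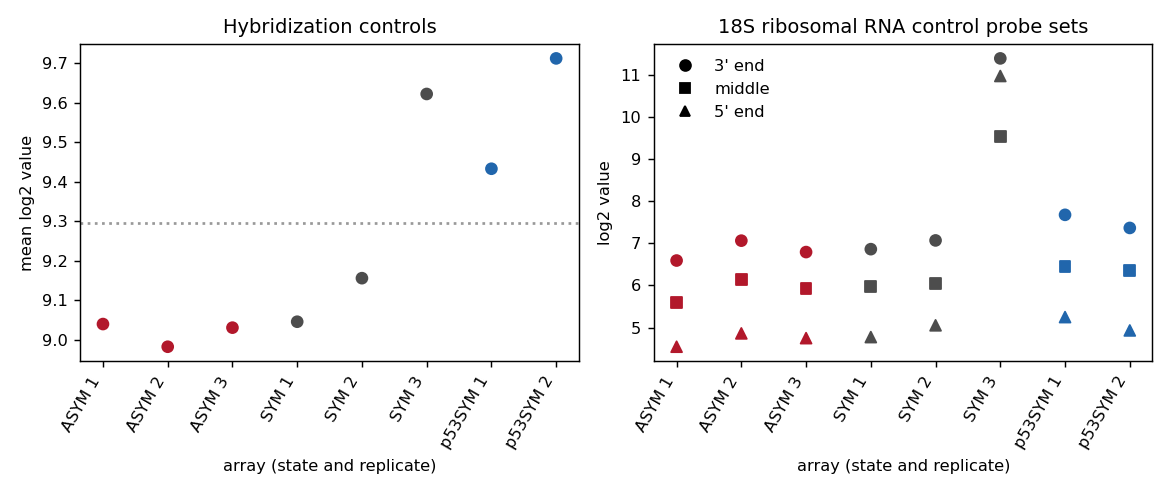
Control probe sets on each array, in log2 values: the mean of the hybridization controls (left, dotted line at the widest gap between arrays) and the 18S ribosomal RNA controls at the 3′ end, middle and 5′ end (right), with ASYM in red, SYM in grey and p53SYM in blue. SYM replicate 3 reads 9.62 and 11.38 (3′ end), and its 18S values lie above those of the other 7 arrays.

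The labelled cell type was checked against 10 fibroblast markers. In ASYM and SYM cultures 7 of them lay above the 75th percentile of all probe sets (8.25), and in p53SYM cultures 6, led by Vim at 14.05 in ASYM and 13.88 in SYM and by S100a4 at 13.91 in p53SYM. Col3a1 averaged 8.80, 9.07 and 6.38 in the ASYM, SYM and p53SYM states. Dcn was low, at 5.59 to 5.83. Lum lay below the 25th percentile (4.30) in every state and Thy1 in ASYM and SYM. The epithelial, endothelial and blood cell markers held 0 genes above the 75th percentile, and their most abundant genes were Krt8 at 4.33 to 4.82, Kdr at 5.84 to 6.60 and Lyz2 at 4.69 to 4.90. Of these genes, Cdh1, Pecam1 and Ptprc lay below the 25th percentile in every state. No probe set was matched to Cd68.

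Other genes bear on the labels. Mt1 and Mt2, metallothioneins that zinc induces, were high on every array, at 13.47 to 13.95 and 12.94 to 13.56. Mt1 was called in 0 comparisons, and Mt2 fell by 0.39 from SYM to p53SYM (adjusted p = 0.0248, limma), a call lost without SYM replicate 2, without p53SYM replicate 2 and under the hybridization-control block. Impdh2, which encodes IMPDH II, had a mean of 12.19 ± 0.033 (SD, n = 3) for ASYM, 12.53 ± 0.022 (SD, n = 3) for SYM and 12.36 ± 0.022 (SD, n = 2) for p53SYM. It fell by 0.34 from SYM to ASYM (adjusted p = 0.0108, limma). The p53SYM cultures did not pass the test against ASYM (adjusted p = 0.163, limma) or SYM (adjusted p = 0.182, limma), and both p53SYM arrays lay above all ASYM arrays and below all SYM arrays. The study describes IMPDH II in p53SYM as raised above SYM, which these Impdh2 values did not show. Whether these probes read the transcript of the introduced cDNA is not given in the sources used here. Impdh1, for the other isoform, averaged 8.04, 7.98 and 8.10 and was called in 0 comparisons.

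A gene is named as called when its limma p, adjusted by the Benjamini-Hochberg method across the 22523 probe sets, lay under 0.05. The 3 comparisons share arrays, so their values are given side by side and are not independent of each other. ASYM against SYM asks what goes with p53 induction together with asymmetric division. In p53SYM against SYM, p53 is induced without asymmetric division, and the IMPDH II cDNA, G418 and the clone differ as well. ASYM against p53SYM sets the pair of p53-expressing lines against each other, which also differ in the IMPDH II cDNA, G418 and clone. In ASYM against SYM, 4 of the 8 genes were called and all 4 were higher in ASYM (Mdm2, Ccng1, Rchy1 and Trp53), where 21.9% of all probe sets were called and 10.9% called higher. In ASYM against p53SYM, 5 were called, against 31.1% of all probe sets (15.6% higher, 15.5% lower): Mdm2, Ccng1, Ppm1d and Rchy1 were higher in ASYM and Mdm4 lower. In p53SYM against SYM, 4 were called, against 25.4% of all probe sets (10.2% higher, 15.1% lower): Ccng1, Mdm2 and Trp53 were higher in p53SYM and Ppm1d lower. The median log2 change of the 8 genes was 0.25, 0.25 and 0.28 in these comparisons, beside -0.06, -0.06 and 0.04 for all probe sets. These genes were chosen with earlier results of the data known, so their counts and medians are a description.

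The rank product test that the study's methods name called fewer probe sets. It called Mdm2 and Ccng1 in ASYM against SYM (3.58% of all probe sets, 2.17% higher and 1.41% lower). It called the same pair in ASYM against p53SYM (1.94%, 1.57% higher and 0.369% lower) and Ccng1 alone in p53SYM against SYM (2.3%, 0.63% higher and 1.67% lower). By separation alone, with every array of one state above every array of the other, 4 of the 8 genes were apart in ASYM against SYM (4 higher, 0 lower), where 38.0% of all probe sets were (16.2% higher, 21.8% lower). In ASYM against p53SYM 6 were apart (4 higher, 2 lower), beside 60.3% of all probe sets (25.8% higher, 34.5% lower). In p53SYM against SYM 7 were apart (6 higher, 1 lower), beside 51.6% (25.7% higher, 25.9% lower). Separation is thus common in comparisons with 2 arrays in a state. With the hybridization-control level as a block, limma called 4, 2 and 3 of the 8 genes in the respective comparisons, where it called 16.2%, 3.14% and 13.6% of all probe sets. Without p53SYM replicate 2 it called 4, 3 and 3 (20.6%, 12.3% and 13.7% of all probe sets), and without SYM replicate 3 it called 4, 6 and 5 (16.2%, 32.2% and 23.7%). With arrays quantile-normalized again it called 4, 4 and 6 (22.2%, 25.5% and 23.8%).

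**Figure D2:**
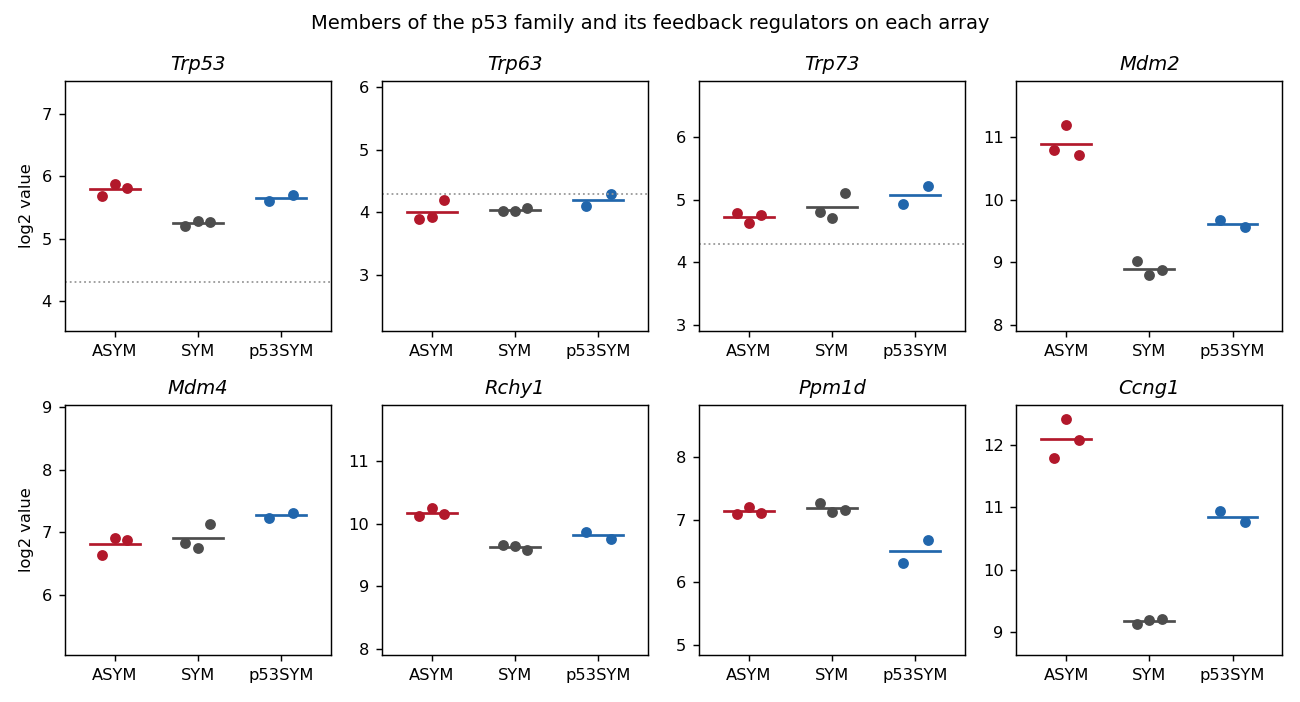
Log2 value of each gene on each array, with a line at the mean of each state (ASYM red, SYM grey, p53SYM blue); each panel spans 4 log2 units and the dotted line marks the 25th percentile of all probe sets. Mdm2 and Ccng1 run from SYM through p53SYM to ASYM with no overlap between states, Ppm1d is low only on the p53SYM arrays, and Trp63 lies at or under the dotted line.

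Among the inhibitors of p53 protein, Mdm2 read 10.79, 11.19 and 10.71 on the ASYM arrays, 9.02, 8.79 and 8.87 on the SYM arrays, and 9.67 and 9.56 on the p53SYM arrays. The states did not overlap, with p53SYM between the other states. Mdm2 was 4.01-fold higher in ASYM than in SYM (95% interval 3.28 to 4.89), and its change ranked 47 from the top among all probe sets. It was 2.43-fold higher in ASYM than in p53SYM (1.94 to 3.04; adjusted p = 0.000262, limma). In p53SYM it was 1.65-fold higher than in SYM (1.32 to 2.06; adjusted p = 0.00492, limma), a change for which the rank product test gave a pfp (estimated percentage of false positives) of 0.255. Each pair of neighbouring states thus differed by more than the spread between arrays.

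The promoter of Mdm2 is shown because the gene moved with the p53-expressing lines. These are the 250 bases before the RefSeq start of Mdm2 (GRCm38.p6, chr10:117710759-117711008, minus strand), 5′ to 3′, with a match to the 10-base p53 unit, a pair of which makes up a p53 response element, in capitals. The bases are those of the upstream promoter; the p53-responsive promoter known inside the first intron of Mdm2 lies outside this window.
Mdm2: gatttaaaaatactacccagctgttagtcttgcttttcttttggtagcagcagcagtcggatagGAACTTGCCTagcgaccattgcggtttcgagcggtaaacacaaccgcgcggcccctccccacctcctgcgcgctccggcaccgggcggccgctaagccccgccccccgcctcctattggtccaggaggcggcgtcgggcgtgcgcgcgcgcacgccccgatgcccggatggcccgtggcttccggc

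Mdm4 gave a different picture. It read 6.63, 6.91 and 6.88 in ASYM, 6.83, 6.75 and 7.13 in SYM, and 7.23 and 7.32 in p53SYM. The ASYM and SYM arrays overlapped, and both p53SYM arrays lay above all others. ASYM and SYM differed by -0.10 on the log2 scale (95% interval -0.36 to 0.17; adjusted p = 0.627, limma). In ASYM it was lower than in p53SYM by a log2 change of -0.46 (SE 0.13, adjusted p = 0.0269, limma). This call was lost without ASYM replicate 1 (adjusted p = 0.0799), without p53SYM replicate 1 (adjusted p = 0.0703), without p53SYM replicate 2 (adjusted p = 0.152) and with the hybridization-control block, where the change of Mdm4 was -0.12 (adjusted p = 0.792, all limma). Against SYM, the p53SYM mean was higher by 0.37 (SE 0.13), which did not pass the test (adjusted p = 0.0725, limma). Without SYM replicate 3, the highest SYM array, it was higher by 0.48 and passed (adjusted p = 0.022, limma), as it did after a further quantile normalization (0.46, adjusted p = 0.0328, limma). Under the block it was higher by 0.14 (adjusted p = 0.626, limma).

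Rchy1 read 10.12, 10.25 and 10.15 in ASYM, 9.66, 9.64 and 9.58 in SYM, and 9.87 and 9.75 in p53SYM. The order was that of Mdm2, with smaller steps and no overlap. Rchy1 was 1.46-fold higher in ASYM than in SYM (95% interval 1.28 to 1.66; adjusted p = 0.00149, limma), where the rank product test gave a pfp of 0.218. It was 1.29-fold higher in ASYM than in p53SYM (1.11 to 1.49; adjusted p = 0.0171, limma). That second call was lost without ASYM replicate 2 (adjusted p = 0.0517), without p53SYM replicate 2 (adjusted p = 0.127), with arrays quantile-normalized again (adjusted p = 0.0557) and under the hybridization-control block (0.363, all limma). The p53SYM and SYM states were neighbours that did not pass the test, 1.14-fold apart (0.98 to 1.31; adjusted p = 0.19, limma). With arrays quantile-normalized again, Rchy1 was called higher in p53SYM, by 0.29 (adjusted p = 0.0369, limma).

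**Figure D3:**
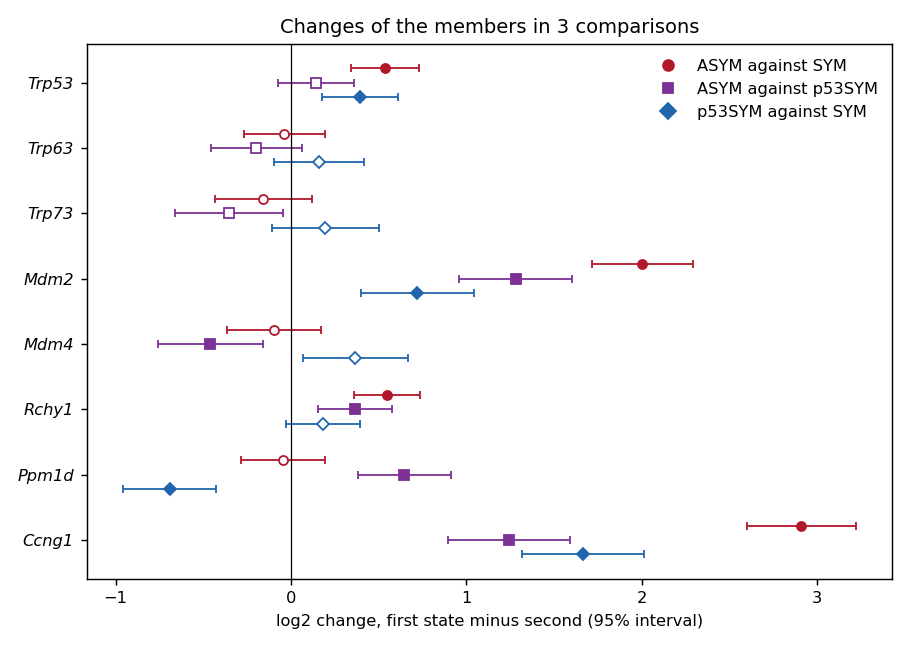
Log2 change of each gene in ASYM against SYM (circles), ASYM against p53SYM (squares) and p53SYM against SYM (diamonds), with the 95% interval from limma; filled symbols passed an adjusted p of 0.05 and open ones did not. Ccng1 (2.91) and Mdm2 (2.00) show the widest changes in ASYM against SYM, and Ppm1d lies near 0 there but at -0.69 in p53SYM against SYM.

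Of the phosphatase arm, Ccng1 had the largest change among the 8 genes in both comparisons with SYM. It read 11.79, 12.42 and 12.07 in ASYM, 9.14, 9.20 and 9.22 in SYM, and 10.93 and 10.77 in p53SYM. As for Mdm2, every p53SYM array lay above every SYM array and below every ASYM array. Ccng1 was 7.51-fold higher in ASYM than in SYM (95% interval 6.06 to 9.32), a change that ranked 14 from the top among all probe sets. In p53SYM it was 3.17-fold higher than in SYM (2.49 to 4.04; adjusted p = 8.02e-05, limma) and ranked 61. In ASYM it was 2.37-fold higher than in p53SYM (1.86 to 3.02; adjusted p = 0.000469, limma). All 3 calls were made under every alternative tried, also when the hybridization-control level entered the fit.

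The bases upstream of Ccng1 are shown for the same reason as those of Mdm2. They are the 250 before its RefSeq start (GRCm38.p6, chr11:40755287-40755536, minus strand), with a pair of abutting p53 units, 20 bases with 1 mismatch to the consensus, in capitals. The pair starts 195 bases before the start of the transcript (chr11:40755462-40755481).
Ccng1: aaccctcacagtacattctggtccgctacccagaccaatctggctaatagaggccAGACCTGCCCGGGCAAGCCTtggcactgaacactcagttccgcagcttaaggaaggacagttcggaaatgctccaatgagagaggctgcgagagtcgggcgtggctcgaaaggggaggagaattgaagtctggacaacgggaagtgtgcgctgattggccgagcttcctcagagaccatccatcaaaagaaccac

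The RefSeq windows of 300 bases, from 250 before to 50 after each start, were searched for this unit, whose consensus reads the same on both strands, and for abutting pairs with at most 1 mismatch. Of 32851 windows in the genome, 2745 (8.36%) held at least 1 unit and 29 (0.09%) a pair. The 8 genes had 10 windows for 7 of them, since Trp63 had no entry, and 5 windows held 1 unit. Those were windows of Mdm2, Ccng1, Ppm1d, Rchy1 and Trp53, one for each gene, and the pair was found in that of Ccng1. The units outside the stretches printed above are given here.
Ppm1d: GAGCTTGCTC
Rchy1: GAGCTTGTCT
Trp53: GGACTTGCCC

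These begin 132, 90 and 75 bases before the respective start (chr11:85311122-85311131, plus strand, chr5:91962637-91962646, minus strand, and chr11:69580284-69580293, plus strand). A match describes the letters of the window and is not a measurement of binding. The genes with a unit included Mdm2, Ccng1, Rchy1 and Trp53, which were higher in ASYM than in SYM, and Ppm1d, which was not. Among the windows of the 30 other p53 target genes listed below, 8 of 29 held at least 1 unit, where the overlapping windows of Aen count the same bases again, and 1 held a pair with 1 mismatch, that of Cdkn1a. For 8 of the 30 target genes there was no entry.
Cdkn1a: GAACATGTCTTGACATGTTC

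The pair of Cdkn1a starts 51 bases before the RefSeq start of one of its transcripts (chr17:29090928-29090947, plus strand).

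Ppm1d did not follow Ccng1. It read 7.10, 7.21 and 7.12 in ASYM, 7.27, 7.12 and 7.17 in SYM, and 6.31 and 6.68 in p53SYM. The ASYM and SYM arrays overlapped and both p53SYM arrays lay below all of them. ASYM and SYM differed by -0.05 on the log2 scale (95% interval -0.28 to 0.19; adjusted p = 0.807, limma). A rise above 0.19 lies outside that interval. From SYM to p53SYM, Ppm1d fell by 0.69 (SE 0.12, adjusted p = 0.00223, limma), and it was higher in ASYM than in p53SYM by 0.65 (SE 0.12, adjusted p = 0.00369, limma). With the hybridization-control block the latter change was 0.61 and was not called (adjusted p = 0.149, limma). Under the block the change from SYM to p53SYM was -0.67 for Ppm1d and was called (adjusted p = 0.0294, limma). Between the arrays with high controls alone it was also -0.67, with a single SYM array in that fit, and was not called.

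In the p53 family itself, Trp53 read 5.68, 5.87 and 5.80 in ASYM, 5.21, 5.29 and 5.27 in SYM, and 5.60 and 5.69 in p53SYM. Every array of the p53-expressing lines lay above every SYM array, and ASYM and p53SYM overlapped. Trp53 was 1.45-fold higher in ASYM than in SYM (95% interval 1.27 to 1.66; adjusted p = 0.00192, limma) and 1.31-fold higher in p53SYM than in SYM (1.13 to 1.52; adjusted p = 0.0144, limma). ASYM and p53SYM were 1.10-fold apart (0.95 to 1.28; adjusted p = 0.282, limma), which did not pass the test. The call in p53SYM against SYM was lost without p53SYM replicate 2 (adjusted p = 0.109) and under the hybridization-control block (0.101, both limma), while the change of Trp53 was 0.34 and 0.38 in these fits against 0.39. The rank product test gave pfp values of 0.223 and 0.73 for Trp53 in the comparisons of ASYM and of p53SYM with SYM.

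The Trp53 level in SYM cultures, 5.25 ± 0.041 (SD, n = 3), lay above the 25th percentile of all probe sets although the line is p53-null. Which part of the gene the null allele lacks, and where in the transcript the probes lie, are not given in the sources used here, so this level does not check the genotype. For the same reason the probe set cannot separate RNA from the introduced cDNA and from the null allele.

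Trp63 and Trp73 encode p63 and p73, which share the DNA-binding domain of p53 and act chiefly in epithelial and neural development. Trp63 had 8 probe sets with 3 distinct value profiles, and every state mean of each profile lay below the 25th percentile. Its brightest profile read 3.89, 3.92 and 4.19 in ASYM, 4.02, 4.03 and 4.07 in SYM, and 4.10 and 4.30 in p53SYM. The ASYM arrays overlapped with both other states, and the p53SYM arrays lay just above the SYM arrays. None of the 3 profiles was called in any comparison by limma, and the smallest unadjusted p was 0.12. Values this dim give no bound on a change of Trp63. Trp73 read 4.78, 4.63 and 4.75 in ASYM, 4.81, 4.71 and 5.12 in SYM, and 4.93 and 5.22 in p53SYM. The SYM arrays overlapped with those of both other states, and the p53SYM arrays lay above all ASYM arrays. Against p53SYM the log2 change of Trp73 in ASYM was -0.35 (95% interval -0.66 to -0.05; adjusted p = 0.0755, limma). It passed without SYM replicate 3 (adjusted p = 0.0431, limma), the SYM array with the highest Trp73 value, and was 0.0011 under the hybridization-control block (adjusted p = 0.998, limma).

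**Figure D4:**
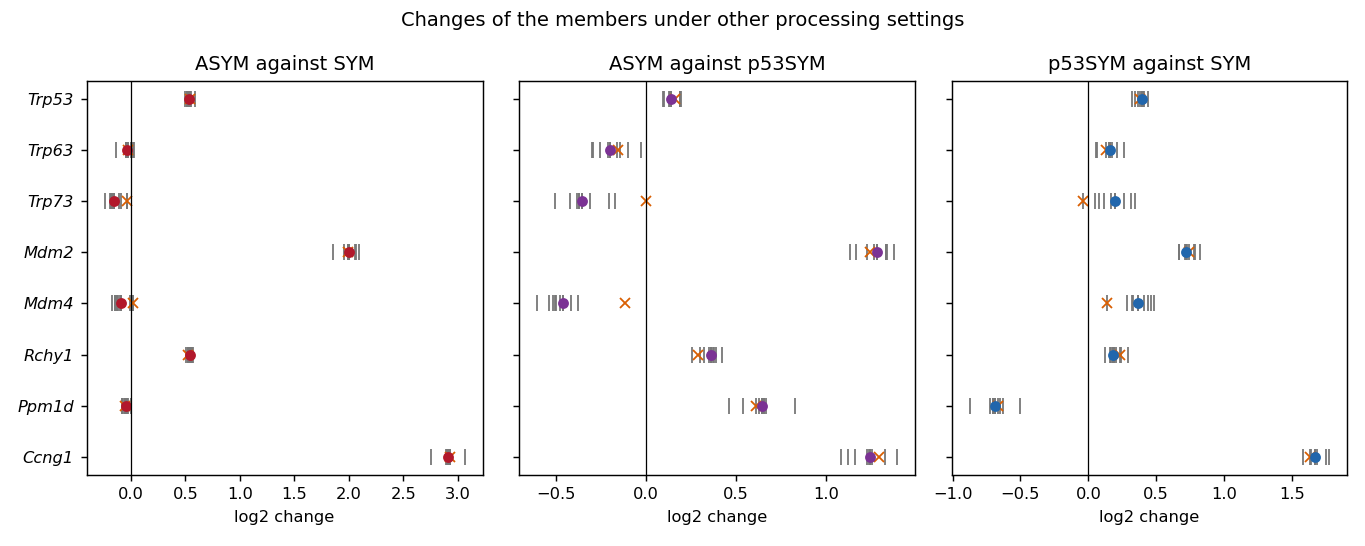
Log2 change of each gene in each comparison (dot) and under the other settings (ticks), with the fit that takes the hybridization-control level as a block as an orange cross. Mdm2 and Ccng1 stay to the right of 0 in all 3 panels, and the change of Mdm4 in ASYM against p53SYM goes from -0.46 to -0.12 under the block.

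Further negative regulators and feedback genes of p53 were read from a list of 20, of which 18 were matched to a probe set. By limma, 2 were called higher and 1 lower in ASYM against SYM, 6 higher and 0 lower in ASYM against p53SYM, and 1 higher and 6 lower in p53SYM against SYM. Over all probe sets, 21.9%, 31.1% and 25.4% were called in these comparisons, so that 3 of 18 in the first and 6 of 18 in the second lay near the background. In the third, 7 of 18 were called, 6 of them lower, a larger share than over all probe sets (15.1% lower). The 6 called lower there became 3 with the hybridization-control block, 4 without SYM replicate 3 and 2 by rank products, and fell as low as 3 with 1 array left out, so nothing is read from them. The 6 called higher in ASYM against p53SYM became 1 with the block. The medians of their log2 changes were -0.07, 0.16 and -0.15. Gtse1, a G2-phase protein that carries p53 out of the nucleus, and Usp10, which deubiquitinates p53, were called in the same direction in both lines against SYM. Gtse1 was higher by 0.79 in ASYM and by 0.37 in p53SYM (adjusted p = 0.000279 and 0.0212, limma). Usp10 fell by 0.44 in ASYM and by 0.51 in p53SYM (adjusted p = 0.00932 and 0.00632, limma). The p53SYM call of Gtse1 was lost without any one of SYM replicates 1 and 2 or either p53SYM array, and that of Usp10 without p53SYM replicate 2. Both were also lost under the hybridization-control block. Usp2, a deubiquitinase of Mdm2, was higher in ASYM than in SYM by 0.30 (adjusted p = 0.0269, limma), a call lost without any one of ASYM replicates 1 and 2 and SYM replicates 1 to 3, and under the hybridization-control block.

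The largest changes of this list lay in the p53SYM line. Trim24, a ubiquitin ligase for p53, had means of 9.01 ± 0.14 (SD, n = 3) for ASYM, 9.17 ± 0.15 (SD, n = 3) for SYM and 7.97 ± 0.042 (SD, n = 2) for p53SYM. From SYM to p53SYM it fell by 1.20 (SE 0.12, adjusted p = 0.000114, limma). Sirt1, a deacetylase of p53, fell by 1.13 (adjusted p = 0.000956, limma) and Smyd2, a methyltransferase that represses p53, fell by 0.85 (adjusted p = 0.000735, limma). In ASYM these genes were higher than in p53SYM by 1.04 for Trim24, 1.06 for Sirt1 and 0.89 for Smyd2 (adjusted p = 0.000275, 0.0016 and 0.000686, limma), and none of them was called against SYM in ASYM. They thus had the order of Ppm1d, with p53SYM apart from both other states. With the hybridization-control block, the calls against p53SYM were lost for Sirt1 and Smyd2 and made for Trim24.

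Proteins that inhibit Mdm2 were listed as 7 genes. Of these, 3 were matched to a probe set, and the others may lie among the probe sets without a name. Cdkn2a, the locus of p19Arf and p16Ink4a, read 8.48, 9.36 and 8.56 in ASYM, 8.12, 8.16 and 8.04 in SYM, and 7.48 and 7.11 in p53SYM. The states did not overlap. Cdkn2a was higher in ASYM than in SYM by 0.69 (adjusted p = 0.0341, limma) and than in p53SYM by 1.51 (adjusted p = 0.00127, limma), and fell by 0.81 from SYM to p53SYM (adjusted p = 0.025, limma). The ASYM call against SYM was lost without ASYM replicate 2, the highest array, and without any one SYM array. Leaving out a SYM array moves the SYM mean of Cdkn2a little, since these arrays read 8.04 to 8.16. Its change from SYM to p53SYM was not called without p53SYM replicate 2, without SYM replicate 1 or without SYM replicate 2. Rpl23, a ribosomal protein that binds Mdm2, was higher in ASYM than in p53SYM by 0.49 (adjusted p = 0.0077, limma) and fell by 0.38 from SYM to p53SYM (adjusted p = 0.026, limma). The former call was lost without p53SYM replicate 2, and the latter without any one p53SYM array, SYM replicate 1 or SYM replicate 2. All of these calls of Cdkn2a and Rpl23 were lost under the hybridization-control block. Ncl was called in 0 comparisons.

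Kinases and cofactors that activate p53 were listed as 18 genes, all with a probe set. By limma, 3 were called higher and 5 lower in ASYM against SYM, 4 higher and 2 lower in ASYM against p53SYM, and 2 higher and 4 lower in p53SYM against SYM, with median log2 changes of 0.03, 0.04 and 0.02. Over all probe sets 21.9%, 31.1% and 25.4% were called, beside 8, 6 and 6 of the 18. In ASYM against SYM, 2 were called higher and 4 lower with the hybridization-control block and without SYM replicate 3, and 1 and 0 by rank products. With 1 array left out, the 4 called higher in ASYM against p53SYM became as few as 0 and the 4 called lower in p53SYM against SYM as few as 1. Nothing is read from these counts. Prkdc, the catalytic subunit of the DNA-dependent protein kinase, was higher than in SYM by 1.00 in ASYM and by 0.57 in p53SYM (adjusted p = 0.000126 and 0.00426, limma). Chek1, the checkpoint kinase, fell by 0.66 and 0.47 (adjusted p = 0.00243 and 0.0197, limma). Prmt5, an arginine methyltransferase, fell by 0.53 and 0.73 (adjusted p = 0.00261 and 0.00073, limma). The p53SYM call of Chek1 was lost without p53SYM replicate 2 or SYM replicate 1 and under the hybridization-control block.

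Others of these cofactors were called between ASYM and p53SYM, and under the hybridization-control block 0 of the list were called there. Kat5, the acetyltransferase Tip60, was lower in ASYM than in p53SYM by a log2 change of -0.75 (adjusted p = 0.001, limma). Ddx5, an RNA helicase, was higher in ASYM by 0.63 (adjusted p = 0.0187, limma) and Ppp1r13b, which encodes the p53-binding protein ASPP1, by 0.47 (adjusted p = 0.0201, limma). Ppp1r13b was also higher in ASYM than in SYM, by 0.60 (adjusted p = 0.0044, limma). The call of Ddx5 was lost without ASYM replicate 1 or 2 or without either p53SYM array, and that of Ppp1r13b against p53SYM without ASYM replicate 2 or p53SYM replicate 2.

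A list of 30 other p53 target genes is set beside the feedback genes. It was chosen with earlier results of these data known, and the study names Cdkn1a, Trp53inp1 and Eda2r as higher in ASYM. Its counts are therefore a description and no independent test. All 30 had a probe set. In ASYM against SYM, 19 were called higher and 1 lower, with a median log2 change of 0.84 beside -0.06 for all probe sets. In ASYM against p53SYM, 21 were called higher and 1 lower (median 0.81), and in p53SYM against SYM, 11 higher and 4 lower (median 0.27). Over all probe sets 10.9%, 15.6% and 10.2% were called higher. Without SYM replicate 3 the counts called higher were the same, and 3 in place of 4 were lower in p53SYM against SYM. With the hybridization-control block, 19, 8 and 9 were called higher in the respective comparisons, beside 1807, 496 and 1139 of all 22523 probe sets. The rank product test called 15, 9 and 4 higher, beside 2.17%, 1.57% and 0.63% of all probe sets.

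In both lines against SYM, 10 of the 30 were called higher and 1 lower, and since both comparisons use the same SYM arrays nothing is read from these counts. Among these 11, the p53SYM calls of Bax and Fas were lost under the hybridization-control block. Cdkn1a, which encodes the cell cycle inhibitor p21, read 9.70, 9.70 and 9.59 in ASYM, 5.73, 5.81 and 6.03 in SYM, and 7.55 and 7.33 in p53SYM. Its change from SYM to p53SYM was 1.59 (SE 0.12, adjusted p = 1.93e-05, limma) and its difference between ASYM and p53SYM 2.22 (SE 0.12, adjusted p = 3.58e-06, limma). Ephx1, microsomal epoxide hydrolase, was higher than in SYM by 3.85 in ASYM and by 2.40 in p53SYM (adjusted p = 1.58e-06 and 6.85e-05, limma). For Trp53inp1, a stress-induced cofactor of p53, these changes were 3.65 and 2.30, and for Eda2r, a TNF receptor family member, 3.73 and 1.36. The SYM mean of Eda2r lay below the 25th percentile, so its changes against SYM may be understated.

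The other 6 of the 10 changed less. Zmat3, an RNA-binding protein, was higher than in SYM by 1.67 in ASYM and by 0.85 in p53SYM. Phlda3, an inhibitor of Akt, was higher by 1.73 and 0.52, the death receptor gene Fas by 1.53 and 0.74, the Trp53inp1 relative Trp53inp2 by 1.24 and 0.80, and the apoptosis effector gene Bax by 1.12 and 0.47. Their adjusted p-values in p53SYM against SYM ran from 0.00169 for Zmat3 to 0.0269 for Fas (limma), and the call of Fas there was lost without either p53SYM array or without SYM replicate 1 or 2. Ddb2, a DNA damage sensor, was higher by 0.77 and 0.94 and did not pass between ASYM and p53SYM (adjusted p = 0.533, limma). Its p53SYM call was lost without p53SYM replicate 1. Pmaip1, which encodes Noxa, ran the other way, with 5.73, 4.49 and 4.87 on the SYM arrays and 3.38 to 3.57 on all others. Its ASYM and p53SYM means lay below the 25th percentile. Dcxr, a carbonyl reductase, had the largest change of the list between ASYM and p53SYM, 2.83 (SE 0.21, adjusted p = 2.42e-05, limma), and fell by 0.69 from SYM to p53SYM (adjusted p = 0.0357, limma), a call lost without SYM replicate 2, SYM replicate 3 or p53SYM replicate 2 and under the hybridization-control block.

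**Figure D5:**
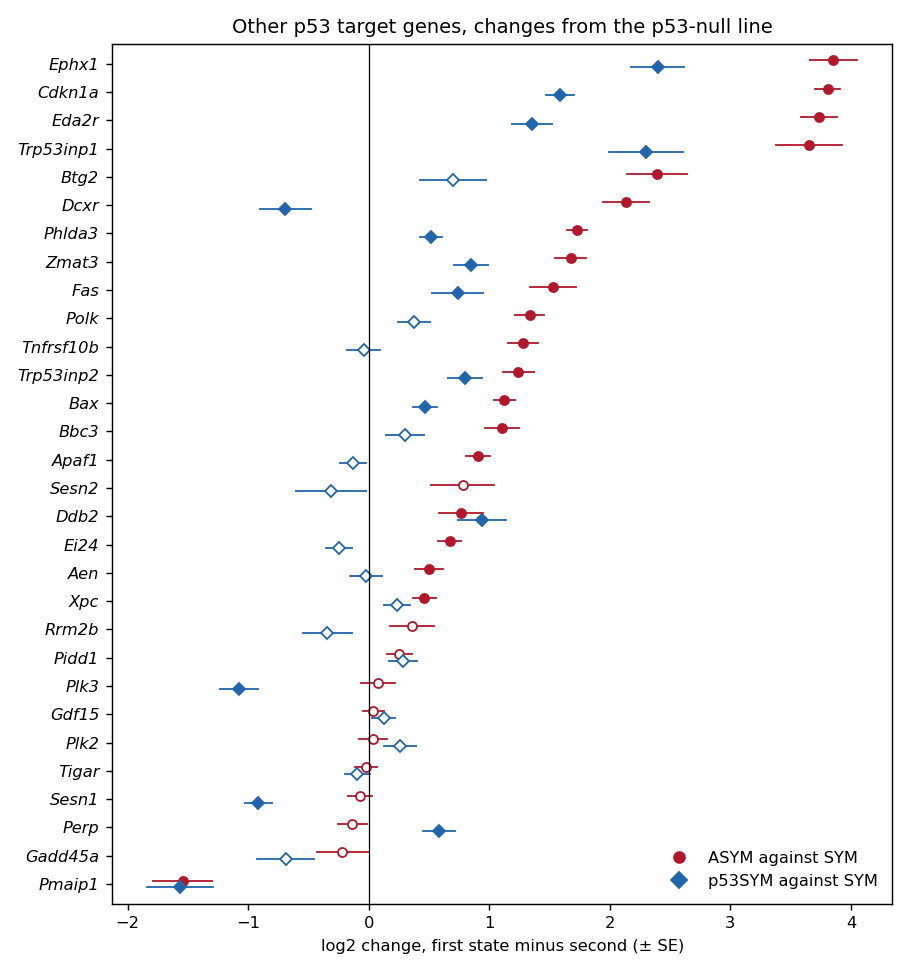
Log2 changes of 30 other p53 target genes from SYM to ASYM (circles) and from SYM to p53SYM (diamonds), with bars of 1 SE and filled symbols for an adjusted p under 0.05 (limma); both comparisons use the same SYM arrays. Cdkn1a, Ephx1, Eda2r and Trp53inp1 lie to the right in both, Pmaip1 lies to the left in both, and Dcxr changes side.

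Paralogues of cyclin G1 and of the Ppm1d phosphatase were listed as 12 genes, all with a probe set. In ASYM against SYM 2 were called higher and 1 lower by limma, in ASYM against p53SYM 0 higher and 1 lower, and in p53SYM against SYM 3 higher and 0 lower. Their median changes were -0.04, -0.13 and 0.00. Over all probe sets 21.9%, 31.1% and 25.4% were called, so 3 of 12 in the first and the last comparison lay near the background and 1 of 12 in the other lay below it. Without SYM replicate 3, 1 was called higher in ASYM against SYM and 2 in p53SYM against SYM. Ccng2, the closest relative of Ccng1, read 8.66, 9.53 and 8.88 in ASYM, 7.90, 7.72 and 7.68 in SYM, and 9.23 and 9.03 in p53SYM. It was higher than in SYM by 1.26 in ASYM (SE 0.19, adjusted p = 0.00123, limma) and by 1.36 in p53SYM (SE 0.21, adjusted p = 0.00122, limma). ASYM and p53SYM overlapped for Ccng2 and differed by -0.10 (SE 0.21, adjusted p = 0.742, limma), whereas Ccng1 separated them by 1.24. Ccni, cyclin I, was higher in p53SYM than in SYM by 0.60 (adjusted p = 0.00392, limma) and lower in ASYM than in p53SYM by a log2 change of -0.36 (adjusted p = 0.0398, limma). The latter call was lost without ASYM replicate 1 or 3, SYM replicate 2 or either p53SYM array, and under the hybridization-control block.

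Among phosphatases of the Ppm1d family, Ppm1a fell by 0.41 from SYM to ASYM (adjusted p = 0.00616, limma). Ppm1f was higher than in SYM by 0.29 in ASYM and by 0.34 in p53SYM (adjusted p = 0.045 and 0.0368, limma). The ASYM call was lost without any single array of the 8, and the p53SYM call without ASYM replicate 3, without any one SYM array and without either p53SYM array. Both were lost under the hybridization-control block.

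Cyclin G1 binds the kinase GAK and B subunits of protein phosphatase 2A. The list of 10 such partners held 0 genes called higher and 3 called lower in ASYM against SYM, 1 higher and 0 lower in ASYM against p53SYM, and 0 higher and 3 lower in p53SYM against SYM (limma), with medians of -0.16, 0.08 and -0.25. With 21.9%, 31.1% and 25.4% of all probe sets called, these counts are no result about the partners. Ppp2cb, a catalytic subunit, fell by 0.30 in ASYM and by 0.44 in p53SYM with respect to SYM (adjusted p = 0.0237 and 0.00577, limma). The former call was lost without ASYM replicate 1 or 2 or SYM replicate 2, and the latter without p53SYM replicate 2 and under the hybridization-control block. Ppp2r5b, a regulatory B subunit, fell by 0.68 from SYM to p53SYM (adjusted p = 0.0038, limma) and was higher in ASYM than in p53SYM by 0.60 (adjusted p = 0.00771, limma), a call lost without p53SYM replicate 2 and under the hybridization-control block. The other named partners were Ppp2r5e and Ppp2r1b, which fell by 0.46 and 0.38 from SYM to ASYM (adjusted p = 0.014 and 0.00987, limma), and Ppp2r5c, whose brighter value profile fell by 0.32 from SYM to p53SYM (adjusted p = 0.0216, limma). The other profile of Ppp2r5c was higher in p53SYM by 0.12 and was not called (adjusted p = 0.378, limma). The call of Ppp2r5e was lost without ASYM replicate 3, and that of Ppp2r5c without SYM replicate 2 or either p53SYM array and under the hybridization-control block.

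Last, genes were ranked by how closely their centred log2 values followed a member over the 8 arrays, by root mean square difference among 11928 genes. For Ccng1, whose own root mean square deviation was 1.27, the closest was Ak1, adenylate kinase 1, at 0.15, followed by Dglucy (0.21), Cryab (0.22), Ass1 (0.24) and BC028528 (0.26). The state means of Ak1 were 10.70 (ASYM), 7.95 (SYM) and 9.53 (p53SYM). For Mdm2, with a deviation of 0.89, they were Phyh (0.15), Commd3 (0.15), Cpt1c (0.16), Pqlc3 (0.17) and Nr4a1 (0.18). Phyh, a peroxisomal hydroxylase, averaged 8.55, 6.75 and 7.54. For Trp53, with a deviation of 0.24, they were Klc3 (0.05), Pde10a (0.06), Atox1 (0.06), Scnm1 (0.06) and Arhgap1 (0.07). The spread of Trp53 itself was the smallest of the 3. Of the 19 promoter windows found for these 15 genes, 1 held a p53 unit, that of Atox1. Cryab and Scnm1 had no entry and were not searched.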

How the data were processed

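Mouse RNA from 8 cultures was hybridized to Affymetrix mouse genome arrays. The values deposited by the authors are log2 units from RMA on probe sets that each stand for a RefSeq transcript, and no normalization was added. Transcripts were matched to symbols of the RefSeq table for GRCm38.p6 (18294 of 22523 probe sets, 81.2%), and 64 control probe sets were left out. States came from the sample labels. A gene with several value profiles was counted by the brightest.

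limma 3.58.1 in R 4.3.3 (lmFit and eBayes) was fitted to the 3 state means, with intervals of 95%. The rank product test was re-implemented with 100 permutations and a pfp threshold of 0.05, in Python 3.11.15. Both were run on simulated data: in the comparison simulated without change limma made no calls and the rank product code made some.

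Alternatives were the compared groups alone, a replicate block, a trend in the prior, a filter on dim probe sets, distinct profiles, 2 other normalizations, the hybridization-control level, a threshold of 0.01 and each array left out. Members and lists were chosen with earlier results of these data known. Named genes are the members, label checks, most list genes called in the same direction in both lines against SYM, the 3 largest called changes per list and comparison, and the 5 closest profiles. Promoters are from RefSeq (GRCm38.p6).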

Additional observations from a re-analysis of the deposited data

Results flagged for a closer look

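The pair of lines with p53 induced can be compared in their change from the same SYM cultures, and 5 of the 8 genes differed between them in the limma test of ASYM against p53SYM, which is the test of that difference and called 31.1% of all probe sets. The change from SYM was larger in ASYM by 1.28 for Mdm2 (adjusted p = 0.000262, limma), by 1.24 for Ccng1 (adjusted p = 0.000469, limma) and by 0.36 for Rchy1 (adjusted p = 0.0171, limma). For Ppm1d the difference was 0.65 (adjusted p = 0.00369, limma), and its called change was the fall of 0.69 from SYM to p53SYM, with -0.05 and no call in ASYM. For Mdm4 the difference was -0.46 (adjusted p = 0.0269, limma). With the hybridization-control level as a block, where 3.14% of all probe sets were called, the calls of Mdm2 and Ccng1 were made and those of Ppm1d (0.61), Rchy1 (0.29) and Mdm4 (-0.12) were not. The part of clone, the IMPDH II cDNA, G418 or control level in these differences was not tested.

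A signal outside the measured genes was seen on SYM replicate 3, where the 18S ribosomal RNA control read 11.38 at the 3′ end. Its part in the results was not tested beyond the fits without this array.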

How the results depend on the processing

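The 13 calls of the 8 genes kept their direction under every alternative run. Where a call was lost, the cause was not tested. Leaving out an array lowers the number of arrays and can also move a mean. By the rank product test, 2 genes were called in ASYM against SYM, 2 in ASYM against p53SYM and 1 in p53SYM against SYM, in place of 4, 5 and 4. That test called 3.58%, 1.94% and 2.3% of all probe sets. ASYM against p53SYM gave 2 with the hybridization-control block, where 3.14% of all probe sets were called, and 3 at an adjusted p under 0.01. No share of all probe sets is given at that threshold, so nothing is read from the 3. The arrays with high controls alone left 1 SYM array in p53SYM against SYM, and nothing is read from the calls of that fit. Without SYM replicate 3 the counts were 4, 6 and 5, where 16.2%, 32.2% and 23.7% of all probe sets were called. With 1 array left out in turn, the counts in the comparisons with p53SYM moved, as did the share of all probe sets called. Nothing is read from these counts. A state left with 1 array was assumed to vary like the others.

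Reversals of sign were seen only for changes that were not called. Trp63 in ASYM against SYM was 0.0325 with arrays quantile-normalized again, and ran from -0.13 to 0.02 with 1 array left out (0.0171 and 0.0014 without ASYM replicates 1 and 2). Trp73 was 0.0011 in ASYM against p53SYM with the hybridization-control block, and -0.04 in p53SYM against SYM with the block and on the arrays with high controls. Mdm4 in ASYM against SYM was 0.0192 with the block, on the arrays with low controls and without SYM replicate 3, and ran from -0.17 to 0.02 with 1 array left out.

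Correlations of deviations between arrays of different states ran from -0.23 to 0.38 for the same replicate number and from -0.41 to 0.24 for different numbers, and whether a number marks a shared preparation is not given. With the replicate block, 4, 6 and 5 of the 8 genes were called and 5382, 8341 and 6376 probe sets in place of 4942, 7009 and 5715. The block added calls for Trp73 (-0.42) in ASYM against p53SYM and for Mdm4 (0.44) in p53SYM against SYM. Dim probe sets, such as those of Trp63, limit what could be seen.

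Counts over all probe sets moved as well. Rank products called 807, 437 and 518. The hybridization-control block gave 3650, 708 and 3066, the arrays with low controls 2968 in ASYM against SYM, and those with high controls 2260 in p53SYM against SYM. Without p53SYM replicate 2, ASYM against p53SYM gave 2781 and p53SYM against SYM 3093.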
